A study of Mus musculus with 5 samples.

Results

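The mouse mitochondrial genome carries 37 genes, 13 for proteins, 2 for ribosomal RNAs (rRNAs) and 22 for transfer RNAs (tRNAs). They were selected here as the rows of the count table whose Entrez identifier lies on the mitochondrial chromosome. Of the 37 genes, 15 had a row among 27179 in the table, namely all 13 protein genes and both rRNA genes. The 22 tRNA genes were not analysed here. The libraries came from ear skin of B6 mice, with 3 control libraries titled Cd1d +/- and tagged WT, and 2 libraries titled Cd1d -/- and tagged Cd1d KO. Cd1d displays lipid antigens on the cell surface, where natural killer T cells recognise them, and the series compared the skin transcriptome with and without it. The labels give neither age nor sex, and do not say that each library came from its own mouse, so p-values measure the spread between these libraries.

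Mitochondrial DNA is a small circle that is transcribed from both strands into long precursor RNAs. The tRNAs sit between most of the other genes, and cutting them out releases the separate messenger RNAs (mRNAs) and rRNAs. All 13 proteins are subunits of the respiratory chain or of ATP synthase and work together with many more subunits encoded in the nucleus. Among the 37 genes 28 are annotated on the plus strand and 9 on the minus strand, and mt-Nd6 is the only protein gene on the minus strand.

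Neighbouring mitochondrial genes can share bases, and several have near-perfect copies in nuclear DNA, so the letters themselves bear on what a read count per gene can hold. The reading frames of mt-Atp8 and mt-Atp6, which encode some of the membrane subunits of ATP synthase, overlap by 43 bases. Those of mt-Nd4l and mt-Nd4 overlap by 7 bases. On opposite strands mt-Nd5 and mt-Nd6 overlap by 14 bases. The whole mt-Atp8 gene (chrM:7766-7969, plus strand, GRCm38) is shown, from GENCODE transcripts, because no other gene shares as large a part of its length with a neighbour, with the 43 bases shared with mt-Atp6 in capitals.
mt-Atp8: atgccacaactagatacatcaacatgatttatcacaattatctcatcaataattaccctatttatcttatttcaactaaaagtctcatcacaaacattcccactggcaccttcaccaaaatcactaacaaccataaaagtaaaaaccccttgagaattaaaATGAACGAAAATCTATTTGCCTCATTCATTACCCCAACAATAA

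A stretch of nuclear chromosome 1 (24611535 to 24616197, GRCm38, 4663 bases) is annotated with 7 unprocessed pseudogenes on the minus strand that hold the sequence of neighbouring mitochondrial genes from the end of mt-Co1 to the front of mt-Nd4. Aligned without gaps, the copies of mt-Co2, mt-Atp6, mt-Co3, mt-Nd4l and mt-Nd4 had no difference over 681, 678, 783, 294 and 876 bases. The copy of mt-Nd3, named Gm28438, had 1 difference in 345 bases, T3C counted from the start of mt-Nd3. On chromosome 2, part of mt-Nd2 lies in Gm13339 (22590024 to 22590533, minus strand), where 17 of 510 aligned bases differed. The start of mt-Nd4l (chrM:9877-9996) is shown because its copy, Gm10222, has the same 120 letters, and the starts of the mt-Nd3 (chrM:9459-9518) and mt-Nd2 (chrM:4442-4561) alignments are shown with the differing bases in capitals. All come from GENCODE transcripts on GRCm38 and are written in the direction of the gene.
mt-Nd4l and Gm10222: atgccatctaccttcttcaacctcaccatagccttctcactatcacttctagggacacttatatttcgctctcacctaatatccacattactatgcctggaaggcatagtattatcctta
mt-Nd3: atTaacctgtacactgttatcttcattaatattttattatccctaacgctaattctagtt
Gm28438: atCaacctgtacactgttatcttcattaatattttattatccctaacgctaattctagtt
mt-Nd2: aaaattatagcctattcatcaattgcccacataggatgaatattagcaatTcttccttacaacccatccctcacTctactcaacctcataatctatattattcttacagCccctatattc
Gm13339: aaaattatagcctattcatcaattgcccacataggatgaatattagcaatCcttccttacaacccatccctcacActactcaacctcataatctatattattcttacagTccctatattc
In the mt-Nd2 pair the 3 differences are T579C, T603A and C638T, counted from the start of mt-Nd2. In all, 98 to 100% of the 50-base windows of mt-Co2, mt-Atp6, mt-Co3, mt-Nd3 and mt-Nd4l were found letter for letter in an annotated nuclear transcript. The share was 62.2% for mt-Nd4 and 51.1% for mt-Co1. It was 8.2% for mt-Nd2, 7.6% for mt-Nd5, 1.0% for mt-Rnr2 and 0% for mt-Rnr1, mt-Nd1, mt-Nd6 and mt-Cytb. No annotated nuclear transcript held a window of mt-Atp8, but 233 bases lie between the chromosome 1 copies of its neighbours mt-Co2 and mt-Atp6, where the mitochondrial genome has 230.

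The libraries held 32353957 to 79160005 counts, so that 1 read was worth 0.0126 to 0.0309 CPM (counts per 1000000, scaled to library size). The targeted gene, Cd1d1, had 557, 757 and 182 counts in the 3 controls. It had 61 and 48 counts in KO, and fell by 2.67 on the log2 scale (SE 0.29, edgeR adjusted p = 0.0152). KO replicate 1 stood apart in hair keratins, with a summed level of 762 CPM over 18 hair shaft and root sheath genes against 22.6 to 43.0 CPM in the other libraries. Over all 17472 genes, 657 had an edgeR adjusted p under 0.05, which is 3.76% (2.71% higher and 1.05% lower in KO).

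The share of counts on mitochondrial genes overlapped between genotypes. In the control libraries, replicates 1 to 3, it was 1.97%, 2.62% and 1.76%. The KO libraries, replicates 1 and 2, had 1.90% and 1.70%, and all values below follow this order. KO replicate 1 lay inside the control range and KO replicate 2 just below it. The means were 2.12% ± 0.453 (SD, n = 3) in controls and 1.80% ± 0.143 (SD, n = 2) in KO, a difference of -0.315 percentage points (two-sided exact permutation test, p = 0.4, where 0.2 is the smallest this design allows). The counting error of each share was far smaller, since control replicate 3, the shallowest library, had an exact 95% binomial interval of 1.752% to 1.761%. The intervals cover counting error only. Fewer mitochondria per cell, less RNA per mitochondrion and a different mix of cells cannot be told apart in these bulk samples.

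Protein mRNAs made up most of the mitochondrial counts. The 13 protein genes held 1.83%, 2.44% and 1.65% of all counts in the controls and 1.76% and 1.59% in KO. The rRNA pair held 0.133%, 0.181% and 0.104% in the controls and 0.137% and 0.111% in KO, again with overlapping groups. Of the mitochondrial counts, rRNA was 6.77%, 6.90% and 5.91% in controls and 7.20% and 6.51% in KO. Whether the library preparation removed rRNA or selected poly(A) tails is not given, so the ratio of rRNA to mRNA is a ratio of these libraries and may not be that of the cells.

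No mitochondrial gene passed the test between KO and control. Of the 15 members 0 passed an adjusted p of 0.05 in either direction (edgeR quasi-likelihood test, adjusted p between 0.232 and 0.992), where 3.76% of all tested genes did. None had an unadjusted p under 0.05 either, against 21.9% of all genes. The log2 fold change (KO minus control) was positive in 8 members and negative in 7, with a median of 0.01 beside -0.018 over all genes. The 95% intervals of the members lay between -0.78 and 0.94 on the log2 scale, so changes of up to 1.91-fold upward in mt-Atp8 and down to 0.582-fold in mt-Nd4 lie inside them. In none of the 15 members did both KO libraries lie above every control, or both below every control, in CPM, while 39.9% of all tested genes had groups that did not overlap. Without KO replicate 1, the library with the high hair keratins, the members' median was -0.16. The difference in share of counts was then -0.42 percentage points. Without control replicate 2, the library with the highest share, the difference was -0.06 percentage points and the members' median 0.18.

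**Figure D1:**
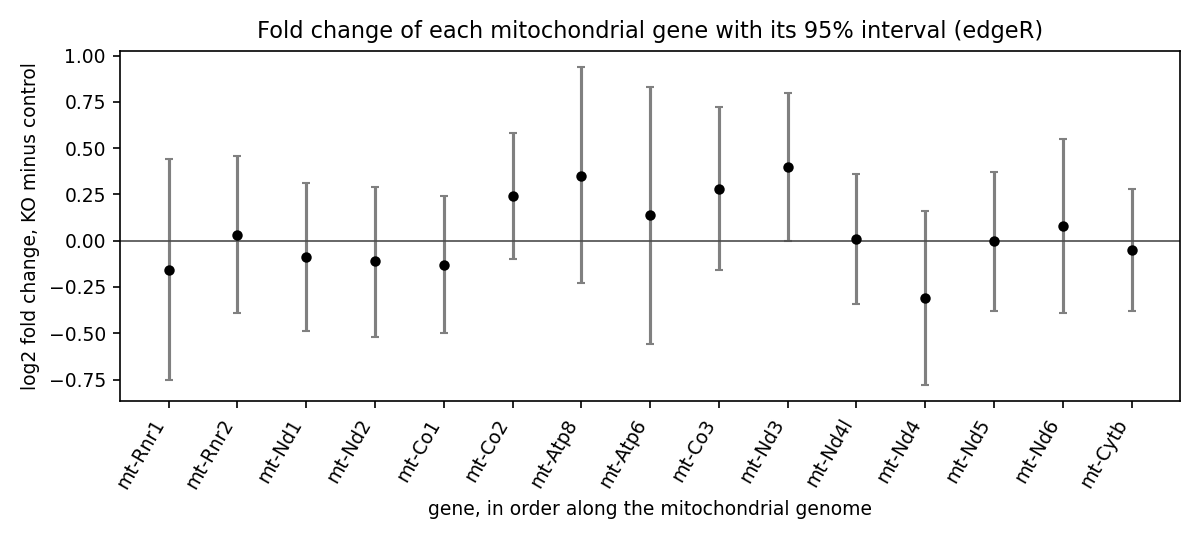
Log2 fold change of each mitochondrial gene, KO (n = 2) minus control (n = 3), with its 95% interval from edgeR, in the order of the genes along the mitochondrial genome. The interval of mt-Nd3 (0.40, fold 0.997 to 1.74) is the one whose lower end comes closest to excluding no change.

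The members varied together between libraries. Control replicate 2 was above control replicate 1 in 15 of 15 members and above control replicate 3 in 14. KO replicate 1 was above KO replicate 2 in 15 of 15. Control replicate 2 was the highest library for 10 members and KO replicate 1 for the other 5, while control replicate 3 was the lowest for 8. These orders describe 5 libraries, and the genes share each library's depth and scaling.

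**Figure D2:**
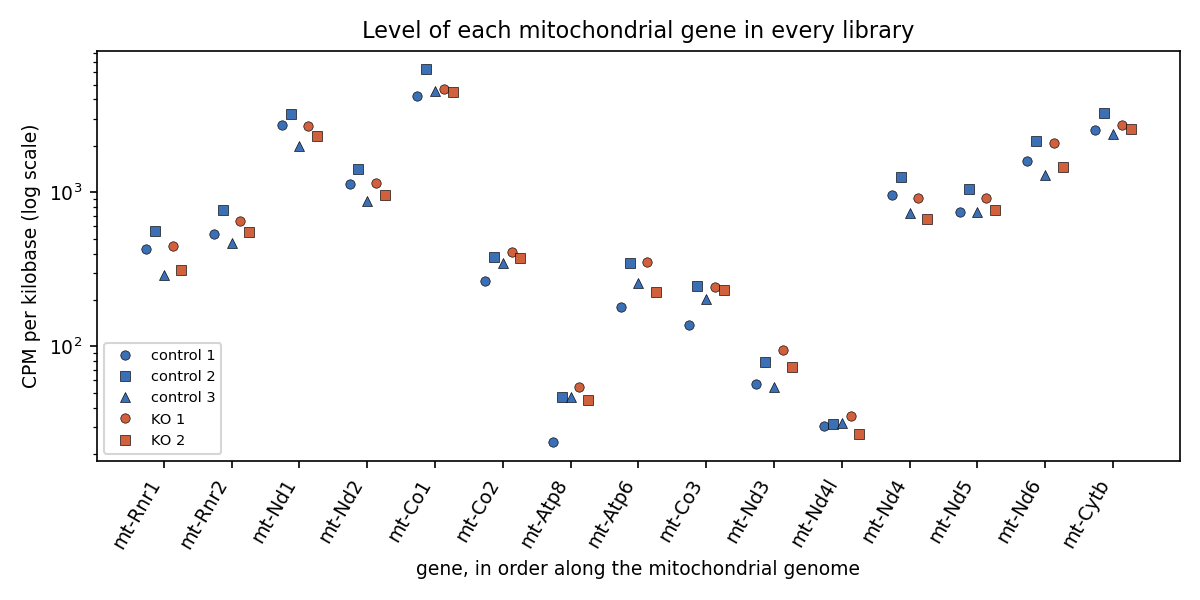
Level of each mitochondrial gene in each of the 5 libraries, in CPM per kilobase of gene on a log axis (blue, control; orange, KO; the marker gives the replicate). Control and KO points overlap for every gene, and levels dip between mt-Co2 and mt-Nd4l.

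Genes of complex IV, cytochrome c oxidase, which passes electrons to oxygen, included the most abundant mitochondrial transcript. mt-Co1, the catalytic subunit (chrM:5328-6872), had 6550, 9687 and 7010 CPM in the controls and 7211 and 6936 CPM in KO. The KO values sat in the lower part of the control range. Its log2 fold change was -0.13 (SE 0.17, edgeR adjusted p = 0.693), and it ranked 7 of all 27179 rows by mean CPM. mt-Co2, which receives the electrons from cytochrome c, had 181, 259 and 238 CPM in the controls and 279 and 256 CPM in KO, a log2 fold change of 0.24 (SE 0.15, edgeR adjusted p = 0.386). mt-Co3, the other core subunit, had 108, 193 and 159 CPM against 191 and 182 CPM, a log2 fold change of 0.28 (SE 0.20, edgeR adjusted p = 0.436). For both, control replicate 1 was the low library and at least 1 KO value lay within the control range. Summed over the 3 genes, complex IV took 0.728%, 1.05% and 0.754% of all counts in controls and 0.718% and 0.698% in KO. These groups did not overlap as shares of the library, although the exact permutation test gave p = 0.2, the smallest possible here, and the 3 genes overlapped in TMM-scaled CPM.

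Complex III and complex I members showed the same overlap. mt-Cytb, the cytochrome b of complex III (chrM:14145-15288), had 2914, 3745 and 2735 CPM in controls and 3110 and 2928 CPM in KO (a log2 difference of -0.05, SE 0.15, edgeR adjusted p = 0.877). mt-Nd1, at the junction of the membrane arm of complex I, had 2615, 3094 and 1923 CPM against 2558 and 2218 CPM (-0.09, SE 0.18). Each KO value lay inside the control range. mt-Nd2, mt-Nd4 and mt-Nd5, the antiporter-like subunits of the membrane arm, had log2 fold changes of -0.11, -0.31 and -0.0. mt-Nd4 had the most negative value, with 1313, 1742 and 1015 CPM in controls and 1266 and 925 CPM in KO (SE 0.21, edgeR adjusted p = 0.427). Only KO replicate 2 was below the control range.

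The short complex I genes behaved less alike. mt-Nd3, a small membrane subunit (chrM:9459-9806), had 19.8, 27.6 and 19.0 CPM in controls and 32.8 and 25.6 CPM in KO. KO replicate 1 was above every control and KO replicate 2 was below control replicate 2. Its log2 fold change of 0.40 (SE 0.18, edgeR adjusted p = 0.232) had the smallest p of the 15. mt-Nd4l, another small membrane subunit, had 8.97, 9.33 and 9.41 CPM in controls and 10.5 and 8.05 CPM in KO, so that KO lay on both sides of the controls (0.01, SE 0.16). Of these 2 genes neither passed with all 5 libraries in edgeR. Without control replicate 2, mt-Nd3 passed as higher in KO (edgeR adjusted p = 0.0226), where 7.8% of all genes passed.

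One other tool called mitochondrial genes. Limma voom with quality weights called 4 of the 15, near its share of 26.7% over all genes. They were mt-Atp8, mt-Co3, mt-Nd3 and mt-Co2, all higher in KO. Of these, mt-Co3, mt-Nd3 and mt-Co2 have the nuclear copies described above, and mt-Atp8 lies between copied genes. DESeq2 called none of the 15 and 10.5% of all genes, and a fit with replicate number as a block none and 11.7%. Length and GC offsets, which remove each library's trend on transcript length and GC content, called none of the 15 and 2.84% of all genes.

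mt-Nd6, the complex I subunit encoded on the minus strand, had 826, 1108 and 668 CPM in controls and 1085 and 753 CPM in KO. The log2 fold change was 0.08 (SE 0.21, edgeR adjusted p = 0.863), with both KO libraries inside the control range. Relative to the 12 plus-strand mRNAs, mt-Nd6 had 0.0504, 0.0495 and 0.0430 counts per count in controls and 0.0611 and 0.0469 in KO. KO replicate 1 was the highest and KO replicate 2 lay among the controls (exact permutation test, p = 0.6). Whether the counting used strand is not known here, and without it any RNA antisense to mt-Nd6 would be counted on it.

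Of the ATP synthase genes, mt-Atp6, which forms part of the proton path, had 122, 238 and 175 CPM in controls and 239 and 154 CPM in KO (a log2 difference of 0.14, SE 0.29, edgeR adjusted p = 0.834). mt-Atp8, with 314 to 731 counts in the 5 libraries, had 4.85, 9.53 and 9.53 CPM against 11.1 and 9.10 CPM. Control replicate 1 was low for both genes and the groups overlapped. mt-Atp8 had a log2 fold change of 0.35 (SE 0.26, edgeR adjusted p = 0.466), with an interval of -0.23 to 0.94.

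The rRNAs of the mitochondrial ribosome followed the mRNAs. mt-Rnr1, of the small subunit (chrM:70-1024), had 408, 531 and 278 CPM in controls and 429 and 298 CPM in KO (a log2 difference of -0.16, SE 0.26, edgeR adjusted p = 0.77). mt-Rnr2, of the large subunit (chrM:1094-2675), had 842, 1211 and 740 CPM against 1035 and 870 CPM (0.03, SE 0.19, edgeR adjusted p = 0.946). Both KO libraries lay inside the control range for each. Per base mt-Rnr2 was 1.25, 1.38 and 1.61 times mt-Rnr1 in controls and 1.46 and 1.76 times in KO (exact permutation test, p = 0.4).

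Within the mitochondrial counts, 3 of the 15 members took a part in both KO libraries that lay above every control. mt-Nd3 was 0.107%, 0.110% and 0.110% of mitochondrial counts in controls and 0.161% and 0.143% in KO. mt-Co3 was 0.587%, 0.765% and 0.923% against 0.940% and 1.02%. mt-Rnr2 was 4.56%, 4.80% and 4.29% against 5.09% and 4.84%. None was below every control, and on the same scale 24.0% of all tested genes had groups that did not overlap, which is near the 3 of 15 seen here.

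Levels per kilobase differed far more between mitochondrial genes than between genotypes. Averaged over the 5 libraries, mt-Co1 had 4840 CPM per kilobase, mt-Cytb 2698, mt-Nd1 2593 and mt-Nd6 1711. mt-Nd2 had 1108, mt-Nd4 909, mt-Nd5 843, mt-Rnr2 594 and mt-Rnr1 407 CPM per kilobase. On this average the 6 genes from mt-Co2 to mt-Nd4l lay below all of these, from 354 CPM per kilobase for mt-Co2 to 31.2 for mt-Nd4l, so that the highest and the lowest of the 15 were 155-fold apart. These 6 genes lie side by side. Neighbours in the order changed places in some libraries for mt-Cytb and mt-Nd1, mt-Nd4 and mt-Nd5, mt-Atp6 and mt-Co3, and mt-Atp8 and mt-Nd4l. mt-Co2 was above mt-Rnr1 in control replicate 3 (348 against 291 CPM per kilobase) and KO replicate 2 (374 against 312).

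**Figure D3:**
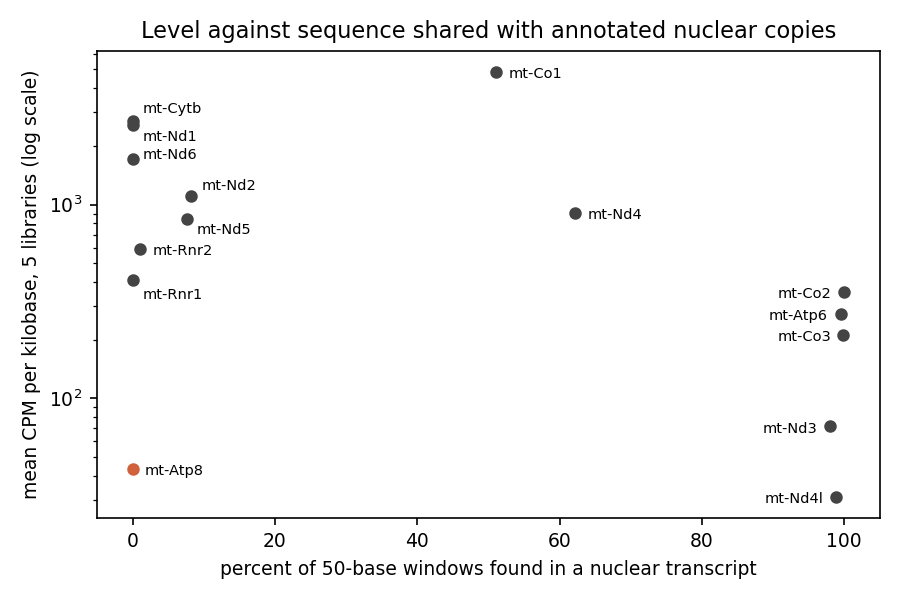
Mean level of each mitochondrial gene over the 5 libraries, in CPM per kilobase on a log axis, against the percent of its 50-base windows found letter for letter in an annotated nuclear transcript. The 5 genes over 90% lie at 31.2 to 354 CPM per kilobase. No annotated nuclear transcript holds a window of mt-Atp8 (orange), which lies between copied genes. Its last 43 bases, shared with mt-Atp6, are shorter than a window.

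The low levels coincided with the copied sequence. The 5 genes with over 90% of their windows in an annotated nuclear transcript had 31.2 to 354 CPM per kilobase, and mt-Atp8, flanked by copied genes, had 43.2. The other 7 genes with under 10% had 407 to 2700, and the partly copied mt-Nd4 and mt-Co1 had 909 and 4840. How the authors' counting treated reads that match 2 places is not given, and its part in these levels was not tested. For this reason the counts of mt-Nd4 and mt-Co1 are uncertain over their copied parts. The counts of mt-Co2, mt-Atp8, mt-Atp6, mt-Co3, mt-Nd3 and mt-Nd4l are uncertain for the same reason. Together these 6 genes were 2.41%, 2.92% and 3.54% of mitochondrial counts in controls and 3.75% and 3.53% in KO, with overlapping groups. Their log2 fold changes were between 0.01 and 0.40, while those of the 7 genes with few shared windows lay between -0.16 and 0.08, a description of groups formed after the values were seen.

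Many nuclear partners of these subunits passed the test between KO and control, while no mitochondrial gene did. The nuclear and mitochondrial sets were not tested against each other. The intervals of some mitochondrial genes hold the nuclear median of 0.50 given below, and those of others do not. Of 77 listed nuclear-encoded subunits of complexes I, III, IV and V, 75 were tested. Uqcr11, with 0 counts in every library, and Cox7a2, with 3 to 14, were not. Of the 75 tested, 36 rose in KO and 0 fell (edgeR), where 2.71% of all genes rose. The median log2 fold change of the 75 was 0.50. By complex, 16 of 36 rose in complex I, 3 of 8 in complex III, 11 of 16 in complex IV and 6 of 15 in complex V. Ndufa2 of complex I went from 143, 152 and 137 CPM to 316 and 274 CPM (a log2 difference of 1.03, SE 0.12, edgeR adjusted p = 0.0152). Ndufa7, Ndufb8 and Ndufb2 of the same complex rose by 0.85, 0.77 and 0.78. In complex III, which hands electrons to cytochrome c, Uqcrq went from 295, 318 and 306 CPM to 552 and 565 CPM (0.87), and Uqcr10 and Uqcrh rose by 0.66 and 0.71. With the length and GC offsets, Uqcr10 and Uqcrh did not pass (0.11 and 0.31). In complex IV, Cox7a1, Cox4i1, Cox8b and Cox8a rose by 0.84, 0.61, 0.88 and 0.60, but with the length and GC offsets none of these 4 passed (0.28, 0.06, 0.30 and -0.0) and complex IV had 2 calls in place of 11. In complex V, Atp5j2, Atp5e, Atp5l and Atp5k rose by 0.80, 0.90, 0.83 and 0.70, and Atp5k did not pass with the offsets (0.13). In every one of these named genes both KO libraries were above all controls, which their choice by smallest p made likely. Over the 75 tested subunits, 69 had groups that did not overlap in CPM, against 39.9% of all tested genes. Nuclear-encoded subunits took 1.33%, 1.36% and 1.22% of all counts in controls and 1.70% and 1.64% in KO.

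For the ratio of mitochondrial to nuclear-encoded subunit counts, both KO values lay below the control range. It was 1.38, 1.80 and 1.36 in controls and 1.04 and 0.967 in KO, with means of 1.51 ± 0.249 (SD, n = 3) and 1.0 ± 0.0496 (SD, n = 2). This ratio was chosen after its values were seen. The exact permutation test gave p = 0.2, the smallest this design allows. By complex the ratio was 1.72 to 2.52 in controls against 1.48 and 1.24 in KO for complex I. It was 1.99 to 2.47 against 1.5 and 1.43 for complex III and 2.17 to 3.13 against 1.59 and 1.60 for complex IV. For complex V the groups overlapped, at 0.0297 to 0.0540 against 0.0416 and 0.0290. Of its mitochondrial genes, mt-Atp6 has a nuclear copy and mt-Atp8 lies between copied genes. The count of 36 changed with single libraries while the median hardly did. It was 0 without control replicate 1, 0 without KO replicate 1 and 4 without KO replicate 2, where the medians were 0.51, 0.47 and 0.53 and the calls over all genes were 0, 1 and 128. Leaving out control replicate 2 gave 52, and leaving out control replicate 3 gave 53, where the calls over all genes were 1334 and 3277. The tested nuclear-encoded transcripts had a median of 1001 bases. With the length and GC offsets 15 rose, with a median of 0.12, where 377 of all tested genes rose. In that fit the members' median was -0.24, with 13 of 15 negative.

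**Figure D4:**
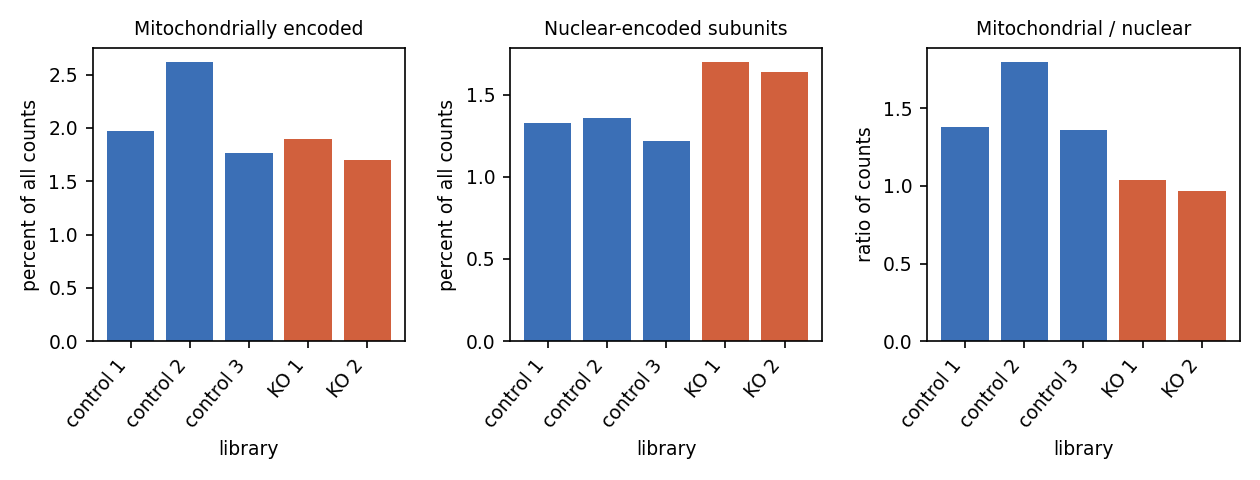
Percent of all counts on the 15 mitochondrial genes (left) and on nuclear-encoded subunits of complexes I, III, IV and V (middle), and the ratio of mitochondrial protein gene counts to nuclear-encoded subunit counts (right), 1 bar a library (blue, control; orange, KO). The ratio is 1.04 and 0.967 in KO and at least 1.36 in controls.

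Some markers of muscle, a tissue rich in mitochondria, also passed the test between genotypes. The median log2 fold change of the 20 listed was 0.43. Higher levels passed the test in 7 of them and a lower level in 1, where 2.71% of all genes rose and 1.05% fell. The lower one was Ttn (-0.59), and Neb (-0.34), Ryr1 (-0.17) and Myh1 (-0.09) had negative values that did not pass. With the length and GC offsets 3 rose and 0 fell, with a median of 0.20, and Tnni2 (0.22) and Ttn (-0.18) did not pass. The number that rose was 0 without control replicate 1, 0 without KO replicate 1 and 1 without KO replicate 2. No muscle marker was at 0, and their summed level was 7063 to 7428 CPM in controls and 9006 and 9982 CPM in KO. Myoglobin, Mb, had 191, 187 and 191 CPM in controls and 341 and 360 CPM in KO (a log2 difference of 0.89, SE 0.11, edgeR adjusted p = 0.0152), and Myl2, Pvalb and Tnni2 rose by 1.31, 0.94 and 0.69. Of 10 brown fat markers 2 rose, Cox7a1 and Cox8b, which are also complex IV subunits of muscle. The summed level of the 10 was 236 to 294 CPM in controls and 357 and 345 CPM in KO. Ucp1, the uncoupling protein that defines brown fat, had 8 to 21 counts in controls and 8 and 6 in KO. The part of these cells in the results above was not tested. Of 12 white fat markers 1 rose, Cfd, by 0.71 (SE 0.15, edgeR adjusted p = 0.0351). With the offsets neither Cfd (0.18) nor the brown fat pair passed, and both lists had 0 calls without control replicate 1, KO replicate 1 or KO replicate 2. White fat markers had sums of 968 to 1525 CPM in controls and 1739 and 1512 CPM in KO. Skin markers were present at high levels, with keratinocyte genes summing to 50720 to 60860 CPM in controls and 70310 and 67350 CPM in KO. Fibroblast genes summed to 26380 to 33880 CPM and 27660 and 27360 CPM. Of the 13 keratinocyte and 10 fibroblast genes 0 passed (edgeR), with medians of 0.06 and -0.11. Unadjusted, 4 and 1 had p under 0.05, and DESeq2 called 3 and 1 and limma voom 5 and 4. Over all genes the shares were 3.76% with edgeR, 21.9% unadjusted, 10.5% with DESeq2 and 26.7% with limma voom.

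The machinery that transcribes and processes mitochondrial RNA did not pass the test. Of 21 genes that copy or transcribe the mitochondrial genome 0 passed (edgeR), with a median log2 fold change of 0.07. Over all tested genes 3.76% passed, and at that share lists this short would hold few calls or none. Lonp1, a protease that binds mitochondrial DNA, had 90.8, 78.7 and 99.7 CPM in controls and 95.9 and 99.3 CPM in KO. Polg, the DNA polymerase, had 43.6, 38.9 and 50.3 CPM against 40.6 and 42.8 CPM. Of 22 genes that cut, tail, stabilise or degrade the transcripts 0 passed, with a median of -0.03, and Hsd17b10, a subunit of the enzyme that cuts the front of the tRNAs, had the highest level, with 76.3, 85.7 and 84.5 CPM against 107 and 104 CPM (0.36, SE 0.11, edgeR adjusted p = 0.102). Rexo2, an exonuclease for short RNAs, had 83.1, 85.5 and 68.5 CPM against 85.3 and 83.9 CPM.

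Enzymes that serve the tRNAs and rRNAs also had no member past the threshold. Of 30 tRNA synthetases and tRNA modifying enzymes 0 passed, with a median of 0.04. Lars2, which charges the leucine tRNA, had 325, 294 and 506 CPM in controls and 242 and 291 CPM in KO, below every control (log2 fold change -0.49, SE 0.21, edgeR adjusted p = 0.207). Gars, which charges glycine tRNA, had 109, 113 and 106 CPM against 109 and 118 CPM. Of 16 enzymes and GTPases of rRNA modification and ribosome assembly 0 passed, with a median of 0.20, and Rcc1l had 33.1, 32.7 and 38.6 CPM against 38.2 and 46.4 CPM and Noa1 21.9, 24.9 and 32.7 CPM against 28.1 and 28.6 CPM. Of 13 regulators of mitochondrial biogenesis 0 passed, with a median of -0.10. Esrra, a nuclear receptor that drives respiratory genes, had 91.9, 77.3 and 116 CPM in controls and 122 and 145 CPM in KO, both above the controls (0.49, SE 0.17, edgeR adjusted p = 0.118). Yy1, a transcription factor, had 64.5, 85.9 and 73.4 CPM against 82.3 and 72.3 CPM. Of 15 tested genes often used as measures of mitochondrial content 1 rose, where 2.71% of all genes rose. It was Sdhb of complex II, by 0.52 (SE 0.11, edgeR adjusted p = 0.0341). Sdhb did not pass with the offsets (0.19, edgeR adjusted p = 0.292), and the list had 0 calls without control replicate 1, KO replicate 1 or KO replicate 2. In these 5 machinery lists without a call, in the order given, 2, 2, 3, 3 and 3 genes had an unadjusted p under 0.05. DESeq2 called 1, 2, 0, 1 and 2 genes of these lists and limma voom 2, 3, 4, 5 and 3. Over all genes the shares were 3.76% with edgeR, 21.9% unadjusted, 10.5% with DESeq2 and 26.7% with limma voom.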

How the data were processed

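Total RNA sequencing of ear skin was analysed in 3 control and 2 KO libraries, grouped by sample title. The authors deposited whole-number read counts per Entrez gene, not normalized, for 27179 identifiers. FastQC, HISAT2 2.0.4 and DESeq2 1.16.1 are named, per the submitters' processing notes. The counting program, strand setting, read length, treatment of reads that match several places and any RNA selection were not given in the sources used here.

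Mitochondrial rows were found by Entrez identifier in the RefSeq gene table of GRCm38. Sequences, lengths and names came from GENCODE transcripts of the same build. Low counts were removed with filterByExpr, leaving 17472 genes, all 15 mitochondrial rows among them. Libraries were scaled by TMM and compared by the robust quasi-likelihood test of edgeR 4.0.16 in R 4.3.3, with Benjamini-Hochberg adjustment over all genes, threshold 0.05. CPM values are TMM-normalised. Single values per library were compared with a two-sided exact permutation test (scipy 1.17.1), which cannot go below 0.2 for 2 against 3. Alternatives were other scalings, count filters, DESeq2 1.42.0, limma 3.58.1 voom, a replicate block, length and GC offsets (mgcv), and each library left out. The edgeR test was tested on simulated data. Chi-square per degree of freedom between libraries of a group was 23.3 to 79.4, so none was a duplicate.

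The members and lists were chosen with earlier results of these data known. All protein and rRNA members are named. Of each list, up to 4 members that passed with the smallest p are named, or up to 2 with the highest mean CPM where none passed. Ttn, Neb, Ryr1, Myh1, Ucp1, Uqcr11 and Cox7a2 are named outside this rule. Other exceptions are named as chosen after their values were seen.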

Additional observations from a re-analysis of the deposited data

How the results depend on the processing

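The count of mitochondrial genes past the threshold was 0 in 14 of the alternatives tried and above 0 in 2. With limma voom and quality weights 4 passed as higher in KO, mt-Atp8 (log2 fold change 0.90), mt-Co3 (0.64), mt-Nd3 (0.51) and mt-Co2 (0.46), where 26.7% of all genes passed, and without control replicate 2 only mt-Nd3 passed, so the count ranged from 0 to 1 with a library left out. The median of the members was between -0.24 (length and GC offsets) and 0.18 (without control replicate 2). With the offsets 7 of 15 members had an unadjusted p under 0.05, as did 19.0% of all genes, and the smallest adjusted p was 0.0601 (mt-Nd4, -0.43). With library size alone 11 of 15 members were negative, and the median of all genes was then -0.16. The count over all genes was 657 (474 higher, 183 lower), 1242 with library size alone (268 higher, 974 lower), 1036 without a count filter, 1834 with DESeq2, 4662 with limma voom and 2037 with the replicate number as a replicate block, and from 0 to 3277 with a library left out (0 without control replicate 1 by edgeR, where 2253 genes had an unadjusted p under 0.05). With the replicate block 0 members passed. Same-numbered libraries had correlations of deviations of 0.016 and 0.0641, and with 2 shared numbers this does not show pairs. Fits with 1 KO library take its spread from the controls. The difference in share was -0.32 percentage points and kept its sign in each alternative, from -0.49 to -0.06 with a library left out, and was -0.14 over members with few shared windows, an alternative chosen after seeing the data. The rRNA to plus-strand mRNA difference of 0.09 on the log2 scale was -0.09 from per-gene medians, and the mt-Nd6 difference of 0.17 was -0.02 without KO replicate 1 and 0.36 without KO replicate 2, the cause was not tested. The ratio of tRNA to mRNA was not run, since no tRNA gene was analysed here. With 3 and 2 libraries, changes under about the intervals given could not be detected.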
